A study of Bos taurus with 9 samples.

Results

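The genes of the basement membrane and of its cell surface receptors were examined in single D8 bovine blastocysts, 5 wild type (WT) and 4 *TEAD4* knockout (KO). The set holds 36 of the 21512 genes in the deposited table, taken by symbol: 9 laminin chains, 6 collagen IV chains, 5 other components of the sheet, 4 matrix glycoproteins, dystroglycan and 11 integrin subunits. The embryos were produced *in vitro* from slaughterhouse oocytes and semen of a single bull, and cultured to D8 in synthetic oviduct fluid. By the study's methods, WT embryos came from oocytes injected with *Cas9* mRNA alone, whereas KO embryos came from oocytes injected with *Cas9* mRNA and an sgRNA against the fourth exon of *TEAD4*, and were kept as KO when every allele carried a frame-disrupting indel. The indels arise at random, so the KO embryos need not share an allele. Each library is 1 whole blastocyst, with inner cell mass and trophectoderm together, so that fewer cells of a type and less RNA per cell cannot be told apart. The libraries are named WT_1 to WT_5 and TE_1 to TE_4, the latter being the KO embryos.

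The basement membrane is a thin sheet on which epithelia rest. Laminins, trimers of an α, a β and a γ chain, polymerise at the cell surface, collagen IV chains form a second network, and nidogens and the proteoglycans perlecan and agrin tie both together. Cells hold on to the sheet through integrins, dimers of an α and a β subunit, and through dystroglycan. In the blastocyst such a sheet lies under the trophectoderm, and the hypoblast, which spreads along the inner face of the trophectoderm, is known in mouse embryos as a strong source of laminin and collagen IV.

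Levels are given in TPM, a share of all transcripts that divides by transcript length so that genes can be compared within a library. TPM does not keep the number of reads, and the paper gives reads per sample only as a range. The number of reads behind each value is therefore unknown, and no counting interval is given. Between 14776 and 16678 genes were above 0 TPM per library. *TEAD4* itself was found in all libraries, at 18.0 to 54.3 TPM in WT and 12.5 to 42.8 TPM in KO, a level that does not show whether a transcript carries an indel. All of the 14 markers of the blastocyst's lineages that were looked up were above 0 in every library. The 7 trophectoderm markers included *CDX2* (17.1 to 55.2 TPM) and *KRT8* (2721 to 11972 TPM), and the 3 epiblast markers included *SOX2* (2.26 to 90.4 TPM) and *NANOG* (0.127 to 262 TPM). Among the 4 hypoblast markers were *GATA6* (29.3 to 146 TPM) and *PDGFRA* (0.0277 to 16.1 TPM). The lowest values of *NANOG* and *PDGFRA* were both in WT_1, whereas the other WT embryos had at least 29.3 and 5.43 TPM. All 4 hypoblast markers were lower in KO by their mean log2(TPM + 1), under each scaling and with each embryo left out in turn, but the unadjusted p was under 0.05 for 1 of them, *GATA4* (log2 fold change −0.59, limma adjusted p = 0.684), and for 3 without WT_1. Of the other lineage markers, 5 of 7 trophectoderm markers were lower in KO (3 without TE_4, 7 without TE_2), with *TFAP2A* at a log2 fold change of −1.34 (limma adjusted p = 0.745), and 2 of 3 epiblast markers (1 without TE_3), beside 8150 of all 14599 genes. What part the makeup of the embryos has in the values of matrix genes was not tested. Of the 10 markers of cumulus and granulosa cells, *FSHR* reached 26.8 TPM, *STAR* 11.7 TPM and the others at most 3.05 TPM. The blood cell markers *PTPRC* and *HBB* were listed at 0 throughout, and of the sperm transcripts *PRM1* ranged from 0 to 73.1 TPM and *TNP1* from 0 to 75.1 TPM.

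No gene of the set was found to differ between WT and KO blastocysts. A median above 0.1 TPM across the 9 libraries, which the comparison required, was reached by 27 of the 36 genes, 26 of them in both genotypes and 1, *ITGA2*, only in WT. The genotypes were compared with limma, a linear model fitted on log2(TPM + 1) to all 14599 genes over that threshold, with Benjamini-Hochberg adjustment over all of them. Log2 fold changes are KO minus WT, with their standard error (SE). With an adjusted p under 0.05 and a log2 fold change above 1 or below −1 required, 0 of the 27 genes were called, against 0.0205% of all genes tested. At an unadjusted p under 0.05 there were again 0 of 27, against 5.90% of all genes. An exact two-sided permutation test over the 126 splits of the embryos into 5 and 4, whose smallest possible p is 0.0159, was under 0.05 for 0 of 27 and for 5.38% of all genes. In none of the 27 did the WT and KO values fail to overlap, which happened in 2.03% of all genes. Adjusted p-values of the 27 genes lay between 0.836 and 0.998 (limma). By their mean log2(TPM + 1), 12 genes were higher and 15 lower in KO, with 8150 of all 14599 genes lower, and the median log2 fold change was −0.034, beside −0.046 over all genes tested. With median-of-ratios size factors or quantile normalization 14 genes were higher in KO.

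**Figure D1:**
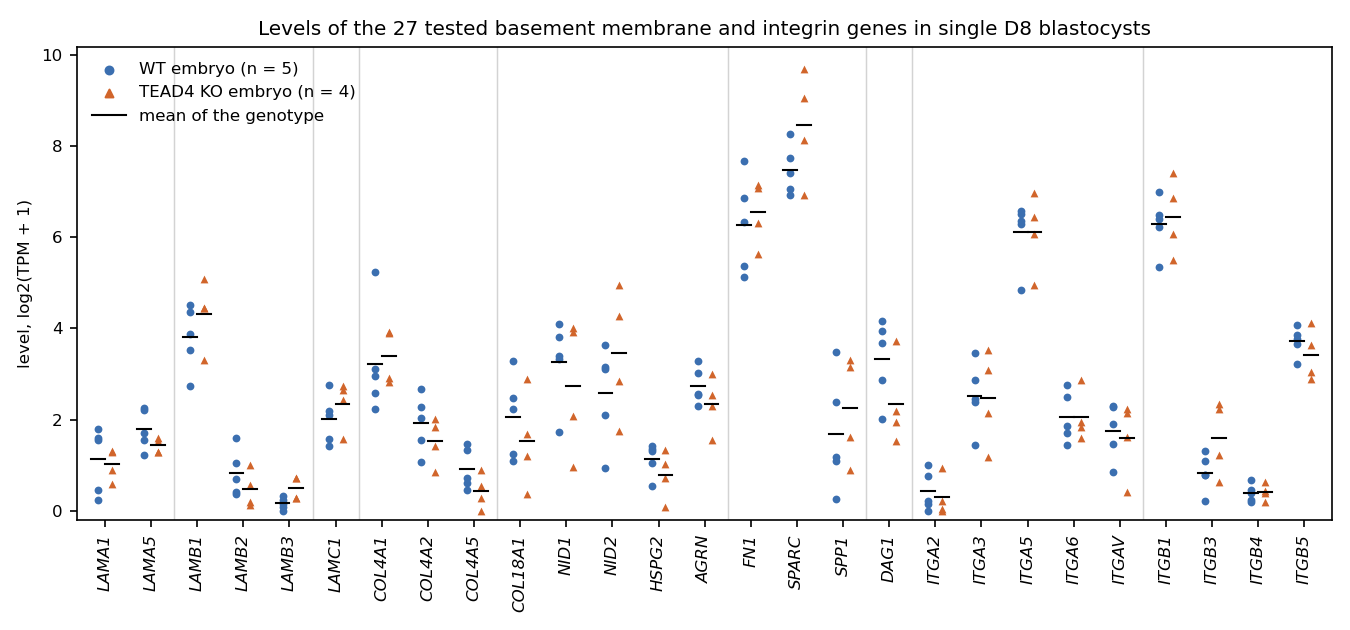
Level of each tested gene, as log2(TPM + 1) on the vertical axis, in each WT embryo (circles, n = 5) and each *TEAD4* KO embryo (triangles, n = 4), with the mean of each genotype as a bar and grey lines between roles. *SPARC*, *FN1*, *ITGA5* and *ITGB1* stand above the rest, and in all 27 genes the genotypes overlap.

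The size of change that the data leave possible differs between the genes. The 95% interval of the log2 fold change lay within −1 and 1, that is within a 2-fold change either way, for 9 of the 27 genes (33.3%), beside 56.8% of all genes tested. These were *LAMA1*, *LAMA5*, *LAMB2*, *LAMB3*, *HSPG2*, *ITGA2*, *ITGA5*, *ITGA6* and *ITGB4*, of which *LAMB2*, *LAMB3*, *ITGA2* and *ITGB4* were under 1 TPM on average, where the pseudocount of 1 TPM holds fold changes down and the interval depends on it. The widest intervals were those of *NID2* (−0.64 to 2.37) and *SPP1* (−0.91 to 2.04). Embryos differed widely: in the 24 genes above 0 in all libraries, the highest of the 9 embryos was at a median of 7.58 times the lowest.

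**Figure D2:**
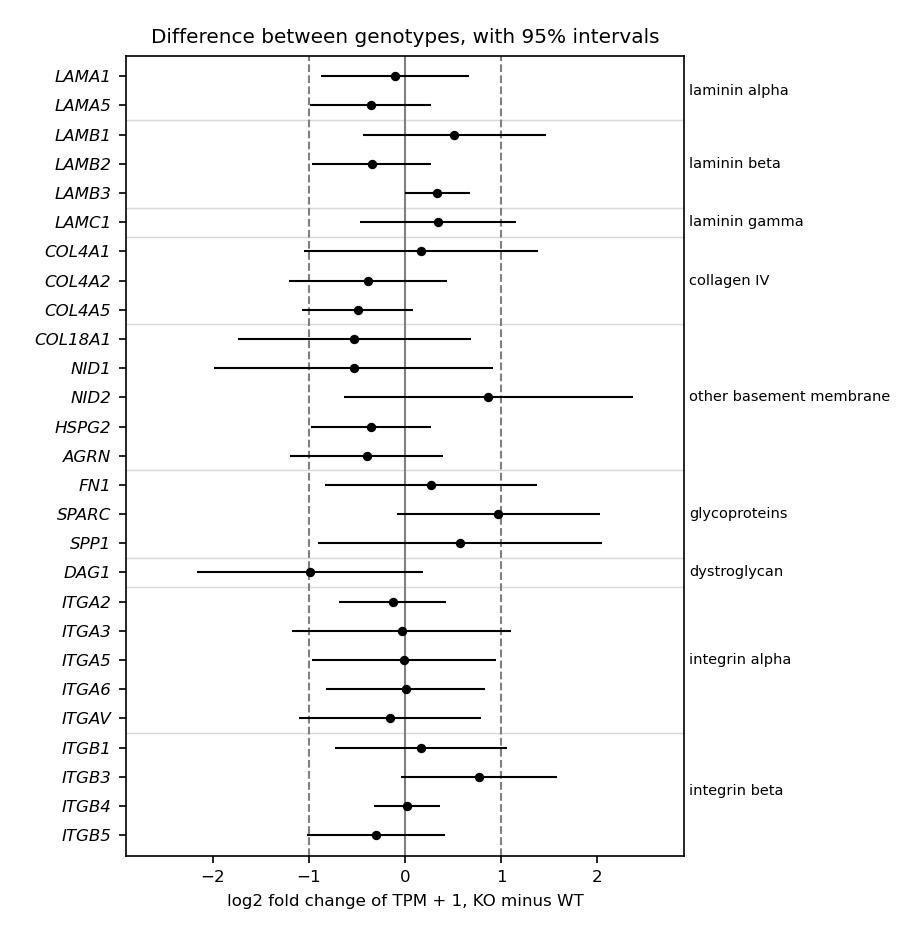
Log2 fold change of TPM + 1, KO minus WT, on the horizontal axis for the 27 tested genes, ordered by role, with 95% intervals from limma (bars) and dashed lines at a 2-fold change. Every interval includes 0, and those of *NID2*, *SPP1* and *SPARC* reach furthest to the right and that of *DAG1* furthest to the left.

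Among the laminins, transcripts of the β chain *LAMB1* were far above those of any partner. *LAMB1* was at 19.7, 10.5, 21.8, 5.69 and 13.8 TPM in the WT embryos, in the order of their numbers, and at 8.97, 20.8, 20.7 and 32.9 TPM in the KO embryos. The highest embryo was a KO and the lowest a WT, with the other KO values inside the WT range. The means were 14.3 ± 6.60 TPM (SD, n = 5) in WT against 20.8 ± 9.77 TPM (SD, n = 4) in KO, and the log2 fold change was 0.51 (SE 0.43, limma adjusted p = 0.953). It was 0.25 without WT_4, 0.26 without TE_4 and 0.85 without TE_1. *LAMB1* made up 86.1 to 98.9% of the summed TPM of the β chains in each embryo.

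*LAMC1*, the γ chain of most laminins, was at 5.76, 1.98, 3.27, 1.67 and 3.55 TPM in WT and at 1.98, 5.31, 5.71 and 4.35 TPM in KO blastocysts, with every KO embryo inside the WT range. Its log2 fold change was 0.34 (SE 0.37, limma adjusted p = 0.971), which was 0.20 without WT_4 and 0.60 without TE_1. The α chains carry the sites that receptors bind. *LAMA5*, the α chain with the highest mean, was at 2.24, 1.94, 3.77, 1.32 and 3.64 TPM in WT and at 1.46, 2.03, 1.90 and 1.45 TPM in KO embryos. No KO embryo left the WT range, and the difference (log2 fold change −0.36 with an SE of 0.29, limma adjusted p = 0.944) did not pass the test. *LAMA1*, the α chain of the embryonic laminin, averaged 1.39 ± 1.04 TPM (SD, n = 5) in WT against 1.07 ± 0.468 TPM (SD, n = 4) in KO, and its log2 fold change of −0.11 became 0.012 with a pseudocount of 0.1 TPM and 0.059 without WT_5. In WT it was split, at 2.01, 1.92 and 2.48 TPM in WT_1, WT_2 and WT_5 but 0.380 and 0.177 TPM in WT_3 and WT_4. The KO embryos, at 0.855, 0.509, 1.42 and 1.48 TPM, all lay between these levels.

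*LAMA2* and *LAMA4*, α chains of muscle and vessels, were listed at 0 in all 4 KO and in 2 and 3 WT libraries and never exceeded 0.171 TPM. *LAMA3*, an α chain of epithelial anchoring laminins, stayed at or under 0.254 TPM. *LAMB2*, a β chain, was above 0 in all 9 libraries and averaged 0.867 TPM in WT against 0.433 TPM in KO. *LAMB3*, the β partner of *LAMA3*, had the smallest unadjusted p of the set. It was at 0.258, 0.105, 0.0549, 0 and 0.178 TPM in WT and at 0.212, 0.633, 0.649 and 0.205 TPM in KO, so that TE_2 and TE_3 were above the WT range and TE_1 and TE_4 inside it. The log2 fold change was 0.34 (SE 0.16, limma adjusted p = 0.836; exact permutation test, two-sided, p = 0.0635), and 1.26 with a pseudocount of 0.1 TPM, past a 2-fold change. Summed over all 9 chains, laminin transcripts reached 22.6 ± 9.28 TPM (SD, n = 5) in WT against 28.9 ± 11.1 TPM (SD, n = 4) in KO blastocysts.

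Of the collagen IV chains, *COL4A1* and *COL4A2*, which build the collagen IV found in almost all basement membranes, carried most of the transcripts. *COL4A1* was at 3.71, 4.98, 36.6, 6.80 and 7.65 TPM in WT and at 6.11, 13.9, 6.52 and 14.3 TPM in KO embryos. WT_3 alone was higher than any KO embryo, and 2 KO embryos were above the other 4 WT embryos. For this reason the mean TPM was higher in WT (11.9 ± 13.9, SD, n = 5) than in KO (10.2 ± 4.50, SD, n = 4), whereas on the log scale the fold change was 0.17 (SE 0.56, limma adjusted p = 0.991), 0.67 without WT_3 and −0.079 without WT_1. *COL4A2* was at 1.11, 1.95, 5.33, 3.82 and 3.09 TPM in WT and at 1.69, 2.56, 0.800 and 3.05 TPM in KO, with TE_3 below the WT range (log2 fold change −0.39 with an SE of 0.38, limma adjusted p = 0.966; −0.16 without TE_3, −0.20 without WT_3 and −0.60 without WT_1).

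*COL4A5* was the only further collagen IV chain over the threshold. It was at 1.77, 1.52, 0.524, 0.380 and 0.653 TPM in WT, at 0.206, 0.464 and 0.865 TPM in TE_1 to TE_3 and listed at 0 in TE_4. The log2 fold change was −0.49 (SE 0.26, limma adjusted p = 0.891), with TE_1 and TE_4 under every WT embryo, and was −1.37 with a pseudocount of 0.1 TPM. *COL4A3* and *COL4A4*, the chains of the kidney filter, reached at most 0.364 TPM in TE_3 and 0.245 TPM in WT_2, and *COL4A6* at most 0.182 TPM. The chains lie in the genome as pairs of neighbours (*COL4A1* with *COL4A2*, *COL4A3* with *COL4A4*, *COL4A5* with *COL4A6*).

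Of the components that link the networks, 4 varied by 17.2 to 32.7 times between the lowest and the highest embryo, and *AGRN* by 4.55 times. *NID2*, a nidogen, was at 0.916, 11.4, 7.65, 3.26 and 7.95 TPM in WT and at 6.17, 29.9, 2.35 and 18.4 TPM in KO, with TE_2 and TE_4 above every WT embryo and TE_1 and TE_3 inside the WT range. Its log2 fold change was 0.87 (SE 0.69, limma adjusted p = 0.942), 0.37 without TE_2, 0.45 without WT_1, 1.44 without TE_3 and 0.44 with array weights. *NID1*, the other nidogen, was at 2.33, 9.49, 9.08, 16.1 and 13.0 TPM in WT and at 14.2, 0.940, 3.23 and 15.1 TPM in KO. TE_2, the highest embryo for *NID2*, was the lowest for *NID1*, and the log2 fold change of *NID1* (−0.53 with an SE of 0.66, limma adjusted p = 0.982) became 0.065 without TE_2. *COL18A1*, a collagen with heparan sulfate chains, ranged from 0.291 to 8.83 TPM and *HSPG2*, which encodes perlecan, from 0.0553 to 1.66 TPM. *AGRN*, which encodes agrin, was at 5.92 ± 1.98 TPM (SD, n = 5) in WT against 4.42 ± 2.12 TPM (SD, n = 4) in KO.

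The genes with the highest mean levels of the set, *SPARC* and *FN1*, encode matrix glycoproteins outside the scaffold of the sheet. *SPARC*, a secreted collagen-binding protein that is abundant in parietal endoderm, was higher on average than 95.7% of all genes tested. It was at 213, 121, 133, 170 and 308 TPM in the WT embryos, in the order of their numbers, and at 122, 534, 279 and 828 TPM in the KO embryos. TE_2 and TE_4 were above the highest WT embryo, while TE_1 was at the level of the lowest WT embryos. The log2 fold change of 0.97 (SE 0.48) was the highest of the set and did not pass the test (limma adjusted p = 0.847; exact permutation test, two-sided, p = 0.190). It was 0.56 without TE_4 and 1.48 without TE_1.

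*FN1*, which encodes fibronectin, was at 34.3, 40.7, 205, 79.7 and 115 TPM in WT and at 142, 78.7, 48.9 and 135 TPM in KO, where all KO embryos lay inside the WT range (log2 fold change 0.27 with an SE of 0.51, limma adjusted p = 0.982; −0.012 without WT_1 and 0.62 without WT_3). WT_3 held the highest value for *FN1*, as for *COL4A1* and *COL4A2*. *SPP1*, which encodes osteopontin, a ligand of integrins with the αv subunit, ranged from 0.191 to 10.2 TPM in WT and from 0.859 to 8.95 TPM in KO. *VTN*, which encodes vitronectin, was listed at 0 in 8 libraries and at 0.562 TPM in TE_1.

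*DAG1*, which encodes both subunits of dystroglycan, a laminin receptor outside the integrin family, had the lowest log2 fold change of the set. It was at 17.0, 14.3, 6.27, 3.01 and 11.8 TPM in WT and at 2.83, 12.2, 3.54 and 1.89 TPM in KO embryos. TE_1 and TE_4 were below every WT embryo, TE_3 was just above the lowest one, and TE_2 was among the upper WT values. The log2 fold change was −0.99 (SE 0.54, limma adjusted p = 0.891; exact permutation test, two-sided, p = 0.143). It was −0.72 without TE_4 and −1.45 without TE_2. The unadjusted p of limma was under 0.05 with array weights, without WT_4 and without TE_2.

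The integrins were dominated by *ITGA5* and *ITGB1*, the subunits of the classical fibronectin receptor. *ITGA5* made up 64.2 to 91.9% of the summed TPM of the 6 α subunits, and *ITGB1*, the common β partner of most matrix-binding α subunits, 81.8 to 91.9% of that of the 5 β subunits. *ITGA5* was at 94.8, 80.9, 77.1, 27.9 and 90.0 TPM in WT and at 66.0, 124, 30.0 and 86.6 TPM in KO. In each genotype 1 embryo, WT_4 and TE_3, was at or under 30.0 TPM and the others were at or above 66.0 TPM. The log2 fold change was −0.0080 (SE 0.44, limma adjusted p = 0.998), −0.32 without WT_4, 0.38 without TE_3 and 0.049 with median-of-ratios size factors. *ITGB1* was at 126, 73.8, 89.1, 39.9 and 83.4 TPM in WT and at 44.1, 169, 65.9 and 115 TPM in KO. WT_4 was again the lowest and TE_2 the highest (log2 fold change 0.17 with an SE of 0.41, limma adjusted p = 0.985; −0.15 without TE_2 and 0.49 without TE_1).

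The other α subunits were at least an order lower on average. *ITGA3* and *ITGA6*, which pair with *ITGB1* as laminin receptors, averaged 5.33 and 3.41 TPM in WT and 5.68 and 3.44 TPM in KO. *ITGAV*, the subunit that binds vitronectin and osteopontin, averaged 2.61 and 2.37 TPM. The collagen receptor subunits *ITGA2* and *ITGA1* were at or under 1.01 and 0.169 TPM in all embryos. Of the β subunits, *ITGB5* averaged 12.4 ± 2.77 TPM (SD, n = 5) in WT against 10.4 ± 4.60 TPM (SD, n = 4) in KO. *ITGB4*, the partner of *ITGA6* in hemidesmosomes, stayed between 0.134 and 0.590 TPM, and *ITGB8* was listed at 0 in all 9 libraries.

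*ITGB3*, another partner of *ITGAV*, was at 0.718, 0.729, 1.47, 0.157 and 1.14 TPM in WT and at 0.537, 4.04, 1.35 and 3.67 TPM in KO. As for *SPARC* and *NID2*, TE_2 and TE_4 were above every WT embryo and TE_1 and TE_3 were not, a likeness that was noticed after the values were seen. The log2 fold change was 0.77 (SE 0.37, limma adjusted p = 0.847; exact permutation test, two-sided, p = 0.175), and 1.27 with a pseudocount of 0.1 TPM.

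Transcripts of partners that assemble into 1 protein, or bind each other, were compared within each embryo over 7 pairs. *COL4A1* was above *COL4A2* in 9 of 9 embryos, by 1.78 to 8.15 times, with mean ratios of 3.40 ± 2.01 (SD, n = 5) in WT against 5.47 ± 1.94 (SD, n = 4) in KO, and *LAMB1* was above *LAMC1* in 9 of 9, by 3.40 to 7.56 times. *LAMA1* was below *LAMC1* in all 9 embryos and *ITGAV* below *ITGB5* in all 9, at 0.0463 to 0.325 of its level. *ITGA6* exceeded *ITGB4* in 9 of 9 embryos. Between *ITGA5* and *FN1* the order changed from embryo to embryo, with *ITGA5* higher in 3 of 9, and *NID1* exceeded *LAMC1* in 6 of 9.

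Across the 9 embryos, on log2(TPM + 1), *LAMB1* and *LAMC1* had the largest Pearson's r of the 7 pairs (r = 0.827, exact permutation p = 0.00724, adjusted p = 0.0507 over the 7 pairs; Spearman's rho = 0.600, exact permutation p = 0.0968, adjusted p = 0.169). For *COL4A1* and *COL4A2*, Pearson's r was 0.738 (exact permutation p = 0.0208, adjusted p = 0.0557) and Spearman's rho 0.733 (exact permutation p = 0.0311, adjusted p = 0.101). *ITGAV* and *ITGB5* had r = 0.690 (exact permutation p = 0.0406, adjusted p = 0.0616) and rho = 0.533 (exact permutation p = 0.148, adjusted p = 0.207). In a pair of cases the relation was negative: *NID1* with *LAMC1* (r = −0.743, exact permutation p = 0.0239, adjusted p = 0.0557; rho = −0.700, exact permutation p = 0.0433, adjusted p = 0.101) and *ITGA6* with *ITGB4* (r = −0.689, exact permutation p = 0.0440, adjusted p = 0.0616; rho = −0.800, exact permutation p = 0.0138, adjusted p = 0.0968). *LAMA1* with *LAMC1* had r = 0.322 and rho = 0.400 (exact permutation p = 0.385 and 0.291, adjusted p = 0.449 and 0.340), and *ITGA5* with *FN1* r = 0.129 and rho = −0.267 (exact permutation p = 0.731 and 0.493, adjusted p = 0.731 and 0.493). None of the 7 pairs passed the adjustment. *ITGB4* lay at only 0.134 to 0.590 TPM, where the number of reads is unknown. Without the 2 embryos farthest from the median of the first gene, r was 0.624 for *LAMB1* and *LAMC1*, 0.468 for *COL4A1* and *COL4A2*, 0.440 for *ITGAV* and *ITGB5*, and was −0.617 for *NID1* and −0.405 for *ITGA6*. Values of 1 library share its total, and with under 6 embryos in each genotype no r is given within a genotype.

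**Figure D3:**
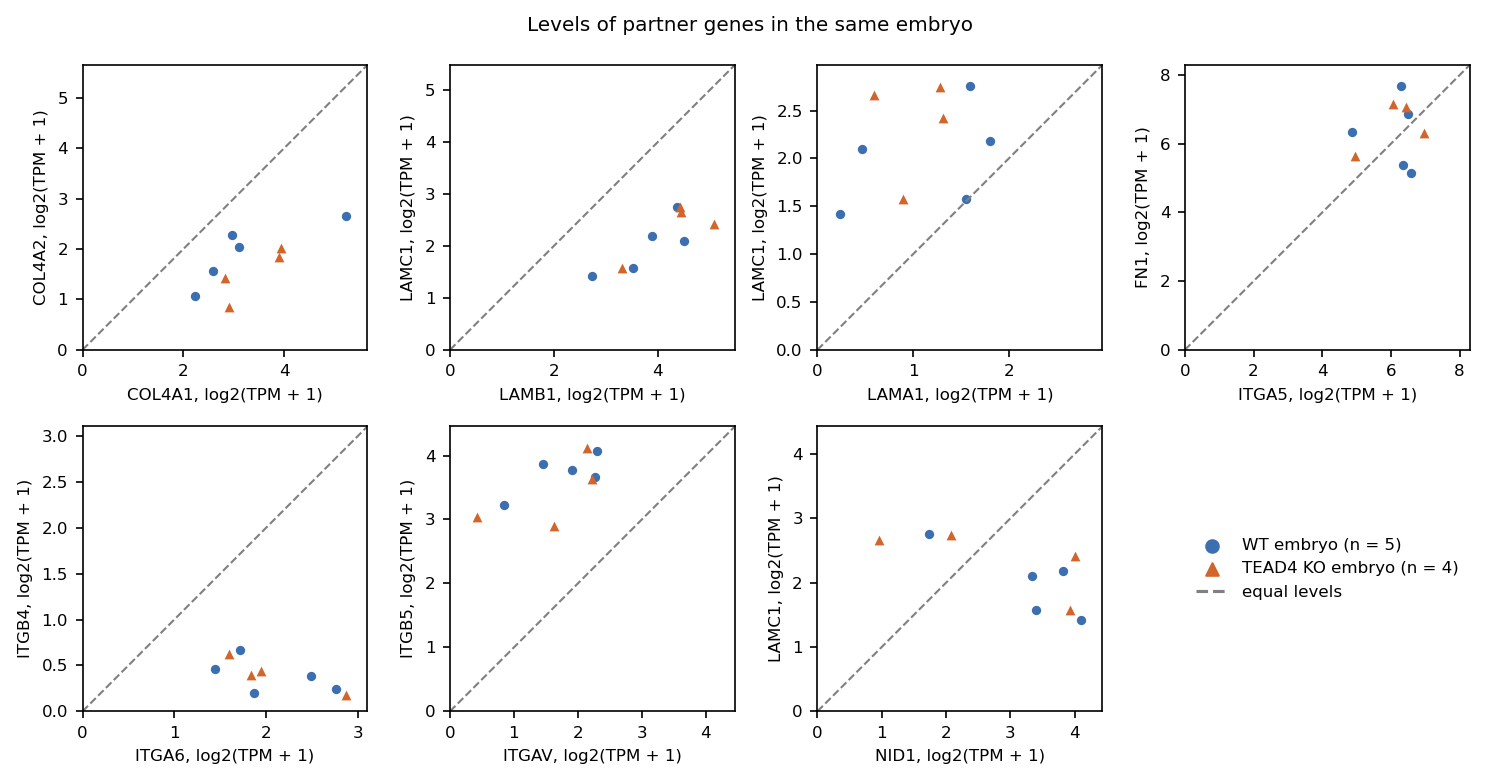
Levels of 7 pairs of partner genes in the same embryo, as log2(TPM + 1) on both axes, for WT (circles, n = 5) and *TEAD4* KO embryos (triangles, n = 4), with equal levels as a dashed line. The first gene of each pair is on the horizontal axis, and all 9 embryos lie under the dashed line for *COL4A1* with *COL4A2* and for *LAMB1* with *LAMC1*, where the first gene was the higher one.

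Embryos were also compared over the 27 genes. WT_5 was above the mean of the 9 embryos in 19 of them, the most of any embryo, with a median deviation from the mean of 0.28 on the log2 scale, and of 0.025 over all genes tested. WT_3 held the most highest values, 6, among them *COL4A1*, *COL4A2*, *FN1* and *LAMA5*. WT_4 held the lowest value of 9 of the 27 genes, among them *LAMB1*, *LAMC1*, *LAMA5*, *ITGA5*, *ITGA6* and *ITGB1*, and was above the mean of the 9 embryos in 5. Its median deviation from the mean was −0.41 on the log2 scale over the 27 genes but −0.011 over all genes tested. TE_1 was above the mean for 5 genes as well, with a median deviation of −0.33, and of −0.28 over all genes. TE_2 stood at 0.40 over the 27 genes and 0.22 over all genes, and held 5 of the highest values and 3 of the lowest. TE_4 held 3 of the highest (*LAMB1*, *SPARC* and *ITGA6*) and 6 of the lowest, *DAG1*, *AGRN* and *ITGA3* among them.

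**Figure D4:**
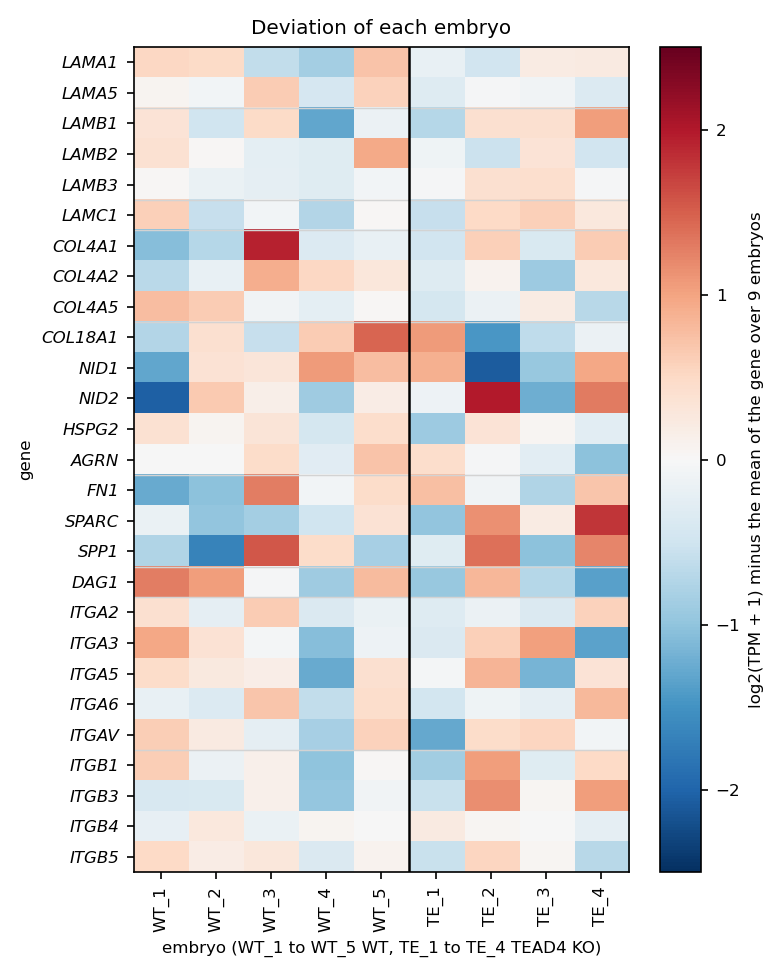
Deviation of log2(TPM + 1) in each embryo (columns) from the mean of the gene over the 9 embryos (rows, 27 tested genes), red above and blue below, with a vertical line between WT and *TEAD4* KO. WT_4 and TE_1 are below the mean in 22 genes each, and in none of the 27 genes are the genotypes apart.

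A list of 89 other genes of matrix and adhesion, none of them in the set, was read in the same fit. Of these 88 were in the table and 71 passed the threshold, with 0 called, 3 with an unadjusted p under 0.05 and higher in KO (2.07% of all genes tested) and 8 with one and lower in KO (3.83% of all genes), all with adjusted p-values of at least 0.720 (limma). The 11 genes under 0.05 became 4 without WT_5, without TE_2 (0 higher and 4 lower) or without TE_4, 7 without WT_2 and 15 with array weights. The median log2 fold change of the 71 was −0.13. By role, the 11 were 3 of 10 matrix proteins, 2 of 10 other receptors, 2 of 16 proteins of the adhesion complex, 1 of 12 collagen-modifying enzymes, 3 of 9 proteins of matrix turnover, 0 of 6 further integrins and 0 of 8 enzymes that put sugars on dystroglycan.

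Among the matrix proteins, *TGFBI*, a secreted integrin ligand, averaged 3.23 ± 3.25 TPM (SD, n = 5) in WT against 12.5 ± 12.8 TPM (SD, n = 4) in KO embryos (log2 fold change 1.52), with 31.2 TPM in TE_4 and a log2 fold change of 0.96 without that embryo. *SMOC1*, a relative of *SPARC*, averaged 0.609 and 1.75 TPM (0.72) and *FBLN1*, which encodes fibulin 1, 4.74 and 0.624 TPM (−1.59). *FBLN1* was listed at 0 in WT_1 as well as in TE_2, and every KO embryo lay inside its WT range. The hyaluronan receptor *CD44* was low and was the only gene of the 71 whose genotypes did not overlap (2.03% of all genes tested), at 0 to 0.118 TPM in WT and 0.205 to 2.32 TPM in KO (log2 fold change 0.62, limma adjusted p = 0.813). Its median was over the threshold of 0.1 TPM in KO (0.298 TPM) but not in WT (0.0356 TPM). *CD44* thus entered the comparison through the KO embryos, where it was high, and fell under the threshold when any of them was left out. Syndecan 1, *SDC1*, averaged 23.8 and 8.01 TPM (−1.34), and of the KO embryos only TE_4, at 2.11 TPM, was below the WT range of 5.32 to 48.9 TPM. The urokinase gene *PLAU* was at 569 ± 398 TPM (SD, n = 5) in WT against 219 ± 227 TPM (SD, n = 4) in KO embryos (log2 fold change −1.72 with an SE of 0.63, limma adjusted p = 0.727), which was −1.12 without TE_4. The other plasminogen activator, *PLAT*, averaged 0.976 and 0.0612 TPM, the inhibitor of metalloproteinases *TIMP3* 2.08 and 0.703 TPM, and the collagen lysyl hydroxylase *PLOD2* 3.08 and 1.05 TPM. *PLAT* was listed at 0 in WT_1 and in TE_1, TE_2 and TE_3. Its median was over the threshold in WT (0.929 TPM) but not in KO, so that it entered the comparison through the WT embryos, where it was high. With a pseudocount of 0.1 TPM in place of 1 TPM the log2 fold changes of the low genes were larger, at 1.36 for *SMOC1*, 2.02 for *CD44*, −2.75 for *FBLN1*, −2.27 for *PLAT*, −1.58 for *TIMP3* and −1.62 for *PLOD2*.

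Of the 16 genes of the adhesion complex, linkers and signalling proteins on the inner side of integrins, 15 were lower in KO by their mean log2(TPM + 1). The count was 14 with median-of-ratios size factors, 13 after quantile normalization and 12 without TE_1. Over all genes tested, 8150 of 14599 were lower. The median log2 fold change of the 16 was −0.38, beside −0.046 over all genes. *FERMT2*, a kindlin that activates integrins, averaged 75.4 ± 20.4 TPM (SD, n = 5) in WT against 48.1 ± 13.7 TPM (SD, n = 4) in KO embryos (log2 fold change −0.63 with an SE of 0.26, limma adjusted p = 0.797) and *PARVB*, a parvin, 0.685 and 0.207 TPM (−0.49, and −1.63 with a pseudocount of 0.1 TPM).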

How the data were processed

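The authors sequenced 1 library per D8 blastocyst. The deposited table gives TPM made by the authors for 21512 genes in 9 libraries, each summing to 1000000. The submitters' processing notes name FastQC, fastp and kallisto without versions; the annotation and genome build are not given in the sources used here, so no coordinates are printed. Extraction and library kits differ between the labels and the paper. Columns were matched to WT or KO by name, and no pair of libraries was identical. Nothing describes the embryos as paired. DESeq2, named in the paper's methods, needs counts and was not run on TPM. With it the paper called more genes between the genotypes than the 3 of all genes tested that were called here. Nothing says whether embryos came from separate fertilization rounds, so p-values measure the spread between these embryos.

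Genes with a median above 0.1 TPM were compared by limma (version 3.58.1, R 4.3.3, eBayes with trend) on log2(TPM + 1), and fold changes are on that scale, which understates changes of low genes. Single genes were also compared by exact permutation over embryos. Python 3.11.15, numpy 2.4.6, pandas 2.3.3, scipy 1.17.1 and matplotlib 3.10.9 were used. All 36 symbols matched RefSeq genes of ARS-UCD2.0, which was used only for names and neighbours.

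The genes of the set, the list of other matrix and adhesion genes and the markers were chosen with earlier results of these data known. Values per embryo were to be given for genes with an unadjusted p under 0.05, for genes without overlap and for the highest gene of each role; the others given in full (*LAMA1*, *LAMB3*, *COL4A2*, *COL4A5*, *NID1*, *FN1* and *ITGB3*) were chosen after their values were seen. The alternatives were another pseudocount, other filters, other scalings, other limma settings and leaving out each embryo. *TIMP1* is not analysed here.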

Additional observations from a re-analysis of the deposited data

Results flagged for a closer look

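In WT blastocysts, *ITGA5* was at 27.9 TPM in WT_4, set apart from the other 4 WT embryos, which were between 77.1 and 94.8 TPM, by more than Dixon's 95% limit for 5 values on log2(TPM + 1). This was the only group of values so set apart among the 54 checked (27 genes in 2 genotypes), whereas chance sets apart about 1 in 20. The KO embryo TE_3 was at a like level, 30.0 TPM.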

How the results depend on the processing

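No gene of the set was called under any of the 17 alternatives, with a smallest adjusted p of 0.476 (limma, *DAG1* without TE_2). The number of the set's genes with an unadjusted p under 0.05 was 0, and became 1 with a pseudocount of 0.1 TPM, without a filter, with robust eBayes or with array weights, 3 with size factors or quantile normalization (*ITGB3*, *LAMB3* and *SPARC*), and 0 to 3 with an embryo left out. The number of all genes called, 3, was 8 with a pseudocount of 0.1 TPM or a median above 1 TPM, 5 with size factors or without trend, 6 with quantile normalization or robust eBayes, and 0 to 10 with an embryo left out. Of the 16 genes of the set with a printed fold change, 10 kept their direction under all alternatives that could be run. The direction turned for *LAMA1* with a pseudocount of 0.1 TPM (0.012; −0.33 to 0.059 with embryos left out), for *ITGA5* with size factors (0.049; −0.32 to 0.38) and, with embryos left out, for *COL4A1* (−0.079 to 0.67), *FN1* (−0.012 to 0.62), *ITGB1* (−0.15 to 0.49) and *NID1* (−0.95 to 0.065). Without the 2 farthest embryos, r was −0.056 for *LAMA1* and *LAMC1* and −0.37 for *ITGA5* and *FN1*. The cause of these shifts was not tested. A median above 1 TPM left no value for *LAMB3*, *COL4A5*, *SMOC1*, *CD44*, *PARVB* and *PLAT*. Leaving out any KO embryo left none for *CD44* either. The number of reads behind low values is unknown. No paired analysis was possible because the sample titles number the embryos without repeats and nothing ties a WT to a KO embryo.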
